A study of Mus musculus with 5 samples.

Results

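Cytosolic ribosomal protein genes were followed across the cell types of mouse bone marrow. Members were all genes whose symbol is Rpl or Rps followed by a digit, or Rplp0, Rplp1, Rplp2 or Rpsa, without symbols that carry -ps and without the Rps6k kinases. The rule took 87 of the 28692 genes in the files. Of these, 77 encode core ribosomal proteins, 31 in the small and 46 in the large subunit, and 10 are related copies or other symbols that the rule takes in (Rpl10l, Rpl22l1, Rpl36al, Rpl39l, Rpl3l, Rpl6l, Rpl7l1, Rps19bp1, Rps27l and Rps27rt). All 87 had at least 1 UMI in the barcodes kept. Rpl10l, with 7 UMIs, was left out of the tests by a filter on low counts, so 86 were tested. The members were 17.0% of all UMIs in those barcodes.

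The series holds 5 libraries of marrow from femurs and tibias of C57BL/6J mice, 8 weeks old, 1 mouse for each of Day 0, Day 3, Day 6, Day 9 and Day 12. Every mouse, the Day 0 animal included, received 1000 BCR-ABL1 pre-B ALL cells by tail vein without irradiation, and Day 0 marrow was taken straight after the injection. Flushed marrow and collagenase-digested bone were pooled, red cells were lysed, and the samples were profiled with 10x Genomics 3′ v2 chemistry, in which each unique molecular identifier (UMI) marks 1 captured RNA molecule. Injected leukemia cells carry no mark in these counts, so they cannot be told apart from host B-lineage cells. With 1 mouse a day no test between days was possible.

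A ribosome is built from a small and a large subunit, each made of ribosomal RNA and a set of ribosomal proteins that are needed in nearly equal numbers. In mammals the mRNAs of these proteins are short, very abundant and share a start site within a run of pyrimidines through which growth signals set their translation. In marrow, dividing progenitors make ribosomes at a high rate, whereas granulocytes largely stop making them as they mature. A few ribosomal proteins have a second gene copy whose use differs between tissues.

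The libraries held 33425695 to 43554233 UMIs. Barcodes with at least 500 UMIs, 5474 to 7604 a library, carried 80.2% to 84.5% of them. Barcodes were clustered without the member genes, and 30678 of 32135 fell in classes named from markers, written with the ending "-like". In all, 574 barcode sequences occurred in more than 1 library. Free RNA, measured in barcodes with at most 100 UMIs, held 11.9% to 19.3% of its UMIs in the members. Some sub-clusters of monocyte-like, monocyte progenitor-like and immature neutrophil-like barcodes were mostly of Day 0 and Day 12.

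The members are spread over 19 chromosomes, with 14 on chromosome 7 as the most on any (GRCm38, GENCODE vM21). Their annotated transcripts are short, with a median length of 760 bases for the 87 members against 1852.5 bases over 28318 genes. The RefSeq table of promoters on GRCm38.p6, 250 bases before to 50 after a start, held 66 of the 87 members. The letters ACTTCCG, on either strand, stood in 23 of these 66 promoters (34.8%), against 6.59% of all 27025 promoters. The overlapping letters CCGGAAGT stood in 18.2% against 4%, CTTTCC in 33 of 66 against 26.3%, and TATAAA in 9.09% against 14.2%. These are counts of letters in a window and not of bound sites. In the 60 bases before the start, ACTTCCG or its reverse complement stood in 7 of the 66 (10.6%), against 2.62% of all promoters. Those 60 bases are shown as examples for 3 members with these letters there and a window outside the gene as GENCODE draws it. They are read 5′ to 3′ on the gene's strand, with those letters in capitals. The windows lie at chr1:72711200-72711259 for Rpl37a, chr15:5116553-5116612 for Rpl37 and chr11:98026650-98026709 for Rpl19, all on the plus strand.
Rpl37a: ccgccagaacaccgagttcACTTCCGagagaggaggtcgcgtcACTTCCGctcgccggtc
Rpl37: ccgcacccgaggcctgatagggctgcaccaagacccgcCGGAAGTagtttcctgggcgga
Rpl19: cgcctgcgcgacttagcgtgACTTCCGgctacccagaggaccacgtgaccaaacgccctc

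Ribosomal protein mRNA took the largest part of the UMIs in ST-HSC & MLP-like cells, the early progenitors, and in T-like cells, and the smallest in neutrophil-like cells. Members held, in the ST-HSC & MLP-like class, 40.0%, 40.4%, 41.3%, 41.5% and 39.0% of all UMIs from Day 0 to Day 12 (40.4% ± 1.03, SD, n = 5 mice). T-like cells followed with 39.5%, 39.0%, 37.9%, 37.4% and 37.9% (38.3% ± 0.878). Mature neutrophil-like cells held 4.34%, 4.63%, 4.81%, 4.85% and 3.42% (4.41% ± 0.591), and immature neutrophil-like cells 5.70% ± 0.284. The 2 neutrophil classes did not overlap any of the other 9 classes found in all 5 mice. Both lay below the free RNA share of their libraries. With at least 20 barcodes at Day 9 only, basophil- or mast-like cells had 36.1%, stromal-like cells 13.9% and erythroid-like cells 3.72%. Conventional dendritic-like cells had 30.2% over 2 libraries, and barcodes left unnamed 26.0%.

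Between these ends lay pro/pre-B-like (32.3% ± 3.13), B-like (31.6% ± 1.999), NK-like (31.6% ± 1.44), plasmacytoid dendritic-like (29.1% ± 0.827), GMP-like (27.8% ± 1.36), monocyte-like (23.8% ± 0.887) and monocyte progenitor-like cells (23.2% ± 0.792). An exact sign-flip permutation test over 5 mice cannot give a two-sided p below 0.0625, so no neighbours in this order could pass 0.05. After adjustment over the 10 pairs of neighbours the smallest was 0.125. ST-HSC & MLP-like lay above T-like cells in 5 of 5 mice, by 2.11 ± 1.60 percentage points, but in 4 of 5 with 10% of each sum taken off as free RNA, the RNA of droplets without a cell, or by the median over cells, with the Day 0 mouse turned in both. T-like lay above pro/pre-B-like cells in 5 of 5, by 6.02 ± 3.17. Pro/pre-B-like, B-like and NK-like cells had no fixed order: B-like exceeded NK-like cells in 2 of 5 mice (exact p = 1). GMP-like exceeded monocyte-like cells in 5 of 5 mice, by 3.98 ± 1.52 points. By the median over cells this order turned, with means of 23.2% and 24.1%, and GMP-like cells were the lower in 4 of 5 mice. Monocyte progenitor-like exceeded immature neutrophil-like cells in 5 of 5, by 17.5 ± 0.585 points. The difference between immature and mature neutrophil-like cells was 1.29 ± 0.388 points, in the same direction in 5 of 5 mice.

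**Figure D1:**
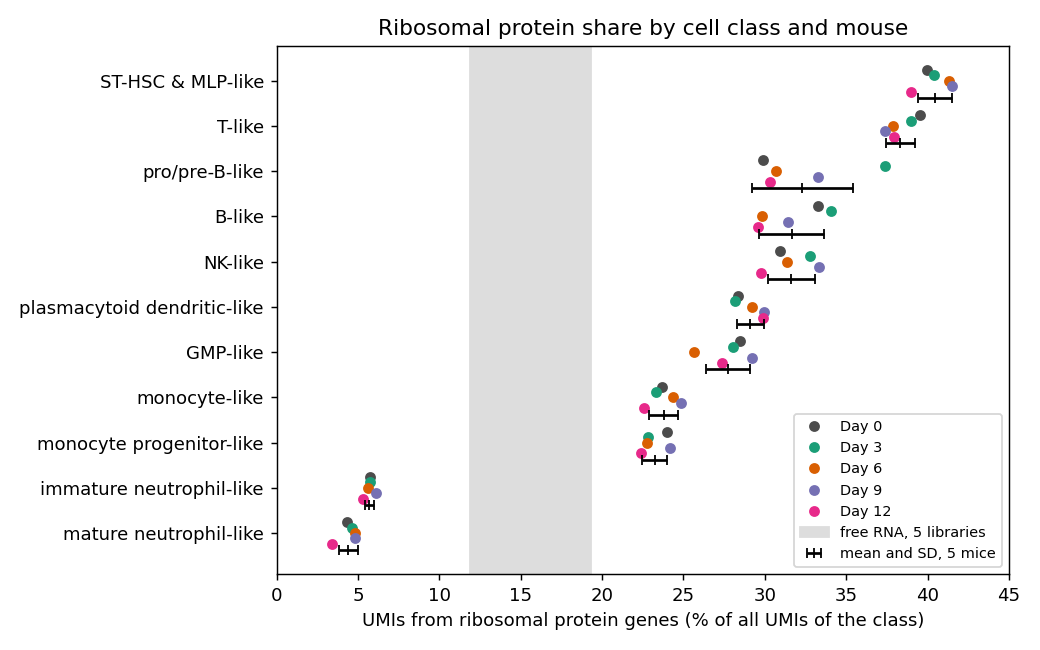
UMIs from ribosomal protein genes as a percent of all UMIs of a class (x axis) for the 11 classes with at least 20 barcodes in all 5 mice (y axis). Points are mice by day, bars are the mean and SD over 5 mice, and the grey band is the range of the free RNA of the libraries. Neutrophil-like classes lie below the band, at 4.41% and 5.70% on average, and all other classes above it.

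The number of ribosomal protein UMIs in a barcode had the same extremes. Its median was 3246 to 4631 over the libraries in ST-HSC & MLP-like cells, 2176 to 2962.5 in GMP-like cells, 796 to 1112.5 in T-like cells and 86 to 122 in mature neutrophil-like cells. Median total UMIs differed between the classes as well, from 7750 to 11614 in ST-HSC & MLP-like and from 2158 to 2656.5 in mature neutrophil-like cells. T-like cells had only 1986 to 2883. T-like cells thus had fewer UMIs than GMP-like cells and a higher member share. Within mature neutrophil-like cells of a library, barcodes with more UMIs had a lower member share (Spearman rho from -0.63 to -0.31 over the 5 libraries, across barcodes and without a test). Within NK-like cells the sign was the opposite (0.40 to 0.65).

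The GMP-like class was not uniform. Its sub-cluster led by Mpo, Ctsg, Prtn3 and Cd34 had a member share of 36.8% ± 1.23 (SD, n = 5), and a sub-cluster led by Elane, Ctsg and Ms4a3 had 34.1% ± 1.09. A further sub-cluster, led by Ass1, Lgals1 and Prtn3, had 29.1% ± 2.09. The sub-cluster led by Mpo, Elane, Prtn3 and Fcnb had 15.7% ± 0.724. Immature neutrophil-like barcodes led by Fcnb and cell cycle genes formed several clusters, the highest at 7.49% ± 0.505. Others had 6.56% ± 0.585 and 5.57% ± 0.375, and a cluster with at least 20 barcodes in only 3 libraries had 6.78% ± 0.147. Immature neutrophil-like barcodes led by Ltf, Ngp and Camp, genes of the secondary granules, had 4.68% ± 0.400. Mature neutrophil-like barcodes led by Retnlg and Cxcr2 had 4.29% ± 0.563, and those led by Rsad2 and Isg15 had 4.27% ± 0.580. Those led by Cxcl2, Ccl3 and Il1b had 4.94% ± 0.826, above the immature barcodes led by Ltf. Apart from the cluster of 3 libraries, each of these clusters had at least 20 barcodes in every mouse. The sub-cluster led by Mpo, Elane, Prtn3 and Fcnb held 716 of the 1400 GMP-like barcodes. Its median was 6781 UMIs, against 18365 and 15338 in the first 2 sub-clusters. Its median mitochondrial share was 5.15%, against 3.59% and 3.83%, and Gm26917 and mt-Nd4l were also among its leading genes. The part of depth and of mitochondrial share in the result was not tested.

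Single members differed widely in level, given here as UMIs per 10000 UMIs of a class. A 3′ tag counts a transcript once whatever its length, so no length scaling was applied. Over the sums of 11 classes in 5 mice, Rps29 was the highest at a mean of 68.2, followed by Rpl41 at 64.2, Rps27 at 61.9, Rpl37a at 57.7 and Rpl32 at 56.9. The lowest with a UMI in at least 1% of barcodes were Rpl6l (5.02), Rps27l (4.53), Rpl7l1 (0.451), Rps19bp1 (0.429) and Rpl3l (0.0625). Rps19bp1 encodes a protein that binds Rps19 and is not itself part of the ribosome. Of the 77 core members, 47 had their highest class mean in ST-HSC & MLP-like and 25 in T-like cells, and 72 had their lowest in mature neutrophil-like cells and the other 5 in immature neutrophil-like cells. The ratio of the highest to the lowest class mean ranged from 3.31 to 30.5 over the core members, with a median of 11.6.

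GMP-like cells, progenitors that give rise to neutrophils, were compared with mature neutrophil-like cells to ask which members differ along the lineage. Under TMM scaling, which sets most genes to no change, 81 of 86 members tested were higher in GMP-like cells and 3 were lower, where 38.4% and 35.5% of all genes tested were called in these directions (edgeR quasi-likelihood test, adjusted p below 0.05, mouse as block). The members' median log2 fold change was 1.79, against 0.07 over all genes. Scaling to total UMIs moved the median of all genes to 1.10 and that of the members to 2.87, with 84 higher and 1 lower. On that scale 7336 of all 12146 genes tested were higher and 2046 lower. With 10% of each sum taken off as free RNA, an alternative chosen after seeing the data, 80 were higher and 3 lower. Of all 12120 genes tested in that setting, 4763 were higher and 4235 lower.

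Rpl36a, a large subunit protein, had the highest log2 fold change of the members. Its level in GMP-like cells was 30.8, 28.2, 25.7, 31.1 and 30.1 from Day 0 to Day 12, and in mature neutrophil-like cells 1.46, 1.39, 1.43, 1.44 and 1.01. The groups did not overlap, and the log2 fold change was 3.36 ± 0.10 (SE, adjusted p = 6.63e-41, edgeR). Rpl35 and Rpl3, the latter near the peptidyl transferase center, were higher in GMP-like cells by 3.22 ± 0.10 and 2.98 ± 0.08. Rpsa, of the small subunit, had 2.57 ± 0.08, and the P-stalk genes Rplp0, Rplp1 and Rplp2, whose products recruit translation factors, had 2.03 ± 0.09, 2.16 ± 0.09 and 1.83 ± 0.08.

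Rps9, a protein of the small subunit, was the core member with the lowest log2 fold change. Its level was 33.7, 37.9, 33.8, 39.0 and 36.2 in GMP-like cells and 22.0, 24.6, 27.3, 27.9 and 21.3 in mature neutrophil-like cells. All GMP-like values lay above all neutrophil values on this scale, whereas TMM scaling placed Rps9 lower in GMP-like cells (log2 fold change -0.52 ± 0.06), so its direction depends on the scaling. Rps27a, made as a fusion with ubiquitin, had 61.7 ± 3.86 and 25.4 ± 3.41 (SD, n = 5). These genes, with Rps27, took a larger part of the family in neutrophils. Rps9 was 1.30% ± 0.0676 of the member UMIs in GMP-like cells and 5.61% ± 0.445 in mature neutrophil-like cells. Rps27a was 2.22% and 5.76%, and Rps27 was 1.35% and 4.10%.

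To see shifts within the family, each sum was also scaled to its own member UMIs. On this scale 73 of 86 members were called between GMP-like and mature neutrophil-like cells, 47 higher and 26 lower in GMP-like cells, with 74.4% of all genes called. The highest were Rpl36a (1.78 ± 0.07), Rpl35 (1.63 ± 0.07) and Rpl3 (1.39 ± 0.06). The lowest were Rpl3l (-6.48 ± 0.29), Rps9 (-2.11 ± 0.06) and Rps27rt (-1.85 ± 0.08). Rpl3l, known for its expression in muscle, was rare throughout, at 0.0178 ± 0.00953 in GMP-like and 0.257 ± 0.0354 in mature neutrophil-like cells (UMIs per 10000). UMIs of small subunit members per UMI of large subunit members were 0.97 ± 0.03 (SD, n = 5) in mature neutrophil-like, 0.91 ± 0.02 in B-like and 0.90 ± 0.02 in immature neutrophil-like cells, and 0.82 ± 0.02 in GMP-like cells.

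**Figure D2:**
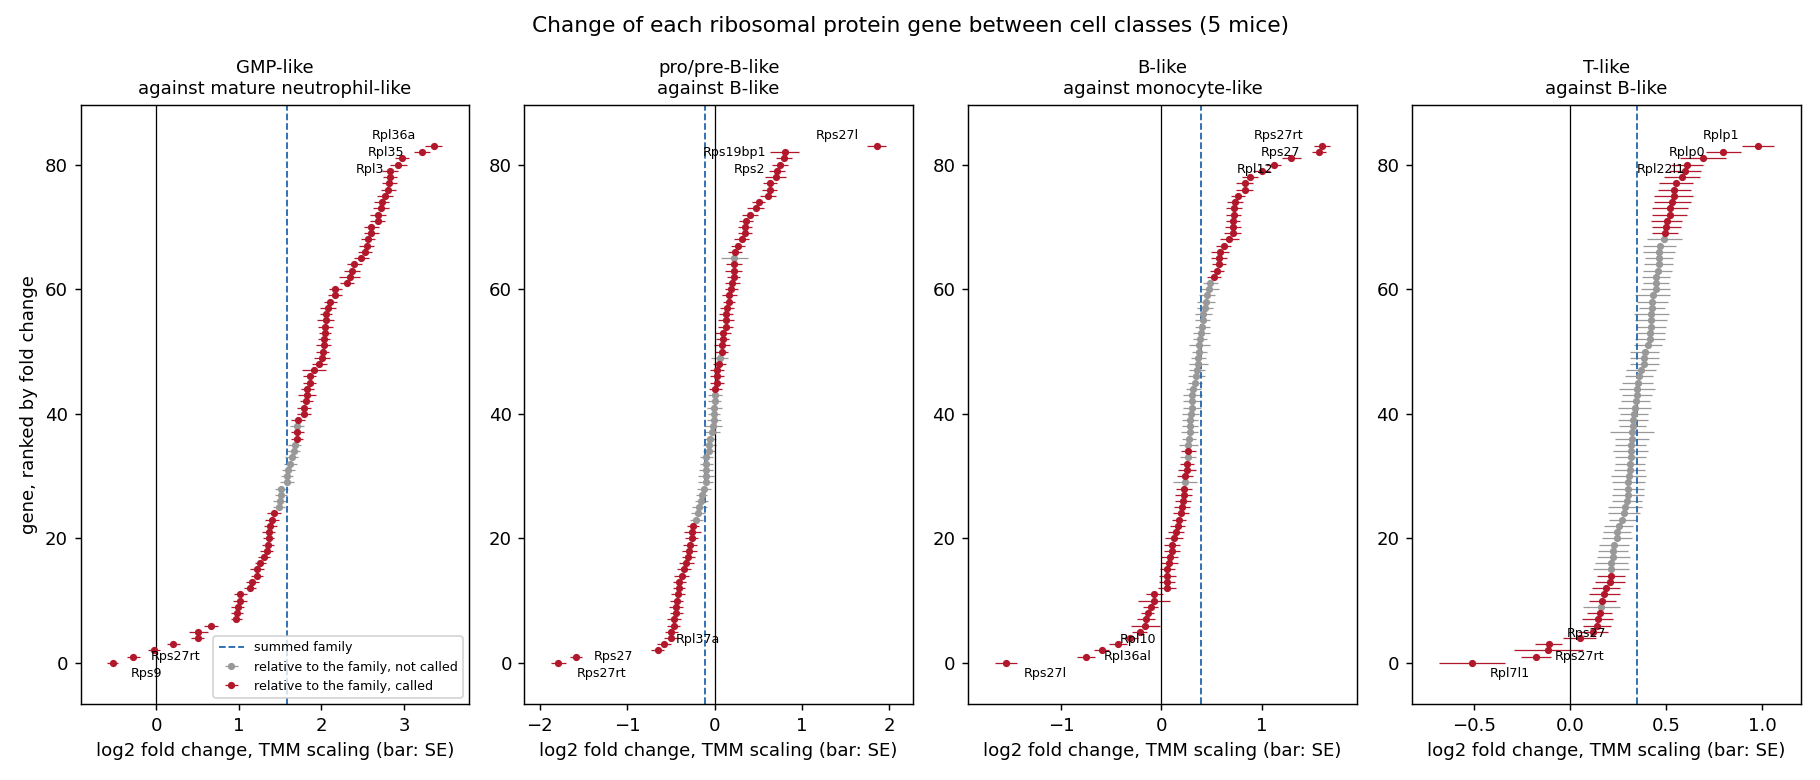
The log2 fold change with TMM scaling (x axis, bars are SE) of each member, ranked (y axis), in 4 comparisons of classes over 5 mice. Rpl39l and Rpl3l, which have few UMIs, are left out. The dashed line is the change of the summed family, red points were called relative to it, and the named genes are the most extreme called ones. In the first panel nearly all members lie right of 0, with a median of 1.79, and in the second they spread to both sides.

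Pro/pre-B-like cells were compared with B-like cells, as 2 classes of the B lineage. A cluster of 1150 barcodes led by Iglc1 and Vpreb3, with B-like as its closest marker list, was left unnamed and is in neither class. Its member share was 23.2% ± 0.637 (SD, n = 5), below that of both classes in every mouse. The comparison therefore does not follow the family through the whole lineage. Under TMM 25 of 86 members were higher and 25 lower in pro/pre-B-like cells, where 26.9% and 23.4% of all genes were called in these directions, and the median of the members was 0.01 against 0.03 over all genes. This split turned with the scaling: with total UMIs it was 38 higher and 18 lower, and with DESeq2 15 higher and 40 lower. Without the Day 3 mouse it was 18 higher and 35 lower. Of all 12146 genes, 3671 were higher and 2427 lower with total UMIs, and 2579 and 3293 with DESeq2. Without that mouse, 2726 and 2719 of 11957 genes were higher and lower. Relative to the summed members, 62 were called, 39 higher and 23 lower, with 49.1% of all genes called, and 5 of the 86 had a change of more than 1 on the log2 scale.

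Rps27 and its copy Rps27l differed in opposite directions between these classes. Rps27, a zinc-finger protein of the small subunit, had 171.5, 134.6, 123.9, 128.0 and 168.8 UMIs per 10000 in B-like cells from Day 0 to Day 12, and 59.3, 46.0, 51.4, 53.6 and 56.1 in pro/pre-B-like cells. Rps27l, known in human cells as a target of p53, had 1.85, 2.14, 1.78, 1.95 and 1.41 in B-like and 6.61, 8.47, 7.05, 7.02 and 8.46 in pro/pre-B-like cells. Neither gene's groups overlapped. The log2 fold changes relative to the family were -1.46 ± 0.07 and 1.97 ± 0.09 (SE, adjusted p = 1.16e-27 and 6.41e-27, edgeR). Under TMM they had the same signs, and the levels per 10000 UMIs differed in these directions in 5 of 5 mice. Rps27rt was called lower with Rps27 (-1.67 ± 0.09). But all 267 aligned bases among the last 300 of both transcripts are identical, so 3′ reads within these bases cannot be told apart. Rpl37a, of the large subunit, was also lower relative to the family (-0.53 ± 0.05), while Rps2, of the small subunit, and Rps19bp1 were higher by 0.89 ± 0.06 and 0.88 ± 0.15. Rps19bp1 was rare, and its levels of 0.757 ± 0.137 in pro/pre-B-like and 0.367 ± 0.208 in B-like cells overlapped. Rplp0 was higher by 0.81 ± 0.06, with levels of 46.7 ± 15.04 and 25.7 ± 4.47 that overlapped.

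B-like cells set against monocyte-like cells compared a lymphoid with a myeloid class. Under TMM 60 members were higher and 6 lower in B-like cells, where 24.0% and 26.2% of all genes were called in these directions, and the median was 0.30 against -0.01. The 6 lower ones were Rpl7a, Rpl10, Rplp0, Rps27l, Rps27a and Rpl36al. Relative to the family 55 were called, 22 higher and 33 lower, with 52.6% of all genes called. Rps27rt (1.21 ± 0.08), Rps27 (1.18 ± 0.07) and Rpl12 (0.90 ± 0.06), a large subunit protein, were the highest. Rps27l (-1.95 ± 0.09), Rpl36al (-1.15 ± 0.07) and Rpl10 (-0.98 ± 0.06), a protein that joins the large subunit last, were the lowest. The levels of Rpl36al were 7.60, 9.71, 8.16, 8.26 and 6.23 in B-like and 13.1, 13.4, 13.1, 14.2 and 12.7 in monocyte-like cells. They did not overlap.

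T-like cells were compared with B-like cells, as 2 mature lymphoid classes. The B-like sums are the same as in both comparisons above. Under TMM 69 members were higher and 1, Rpl7l1, was lower in T-like cells, where 12.8% and 9.75% of all genes were called in these directions, and the median was 0.34 against 0.03. Among barcodes under a limit on the share of mitochondrial UMIs, set for each library, 42 were higher and 3 lower. Of all 12052 genes tested in that setting, 1332 were higher and 1143 lower. At Day 12 the limit, 2.50%, lay below the median mitochondrial share of T-like (4.22%) and B-like barcodes (4.07%), so most of these were left out. P-stalk genes were among those higher. Rplp1 had 91.0, 91.8, 87.5, 89.1 and 78.8 UMIs per 10000 in T-like and 48.2, 54.1, 44.3, 49.1 and 38.9 in B-like cells, which did not overlap, and its log2 fold change was 0.98 ± 0.08 (adjusted p = 2.9e-16, edgeR). Rplp0 followed with 0.80 ± 0.09 and Rplp2 with 0.61 ± 0.08. Relative to the family 29 were called, 15 higher and 14 lower, a share near the 28.7% of all genes called. Without the mouse block this count was 12, and leaving out 1 mouse gave 17 to 22. The highest were Rplp1 (0.63 ± 0.05), Rplp0 (0.45 ± 0.06) and Rpl22l1 (0.35 ± 0.11), and the lowest Rpl7l1 (-0.85 ± 0.17), Rps27rt (-0.53 ± 0.08) and Rps27 (-0.47 ± 0.07). Values of Rpl7l1, Rps27rt and Rps27 overlapped between the classes, though T-like cells were the lower in every mouse. Rps27rt and Rps27 were not called under TMM. Rpl7l1 was rare, at 0.300 ± 0.0632 in T-like and 0.464 ± 0.125 UMIs per 10000 in B-like cells. As parts of the family, the values of Rplp0 overlapped too.

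**Figure D3:**
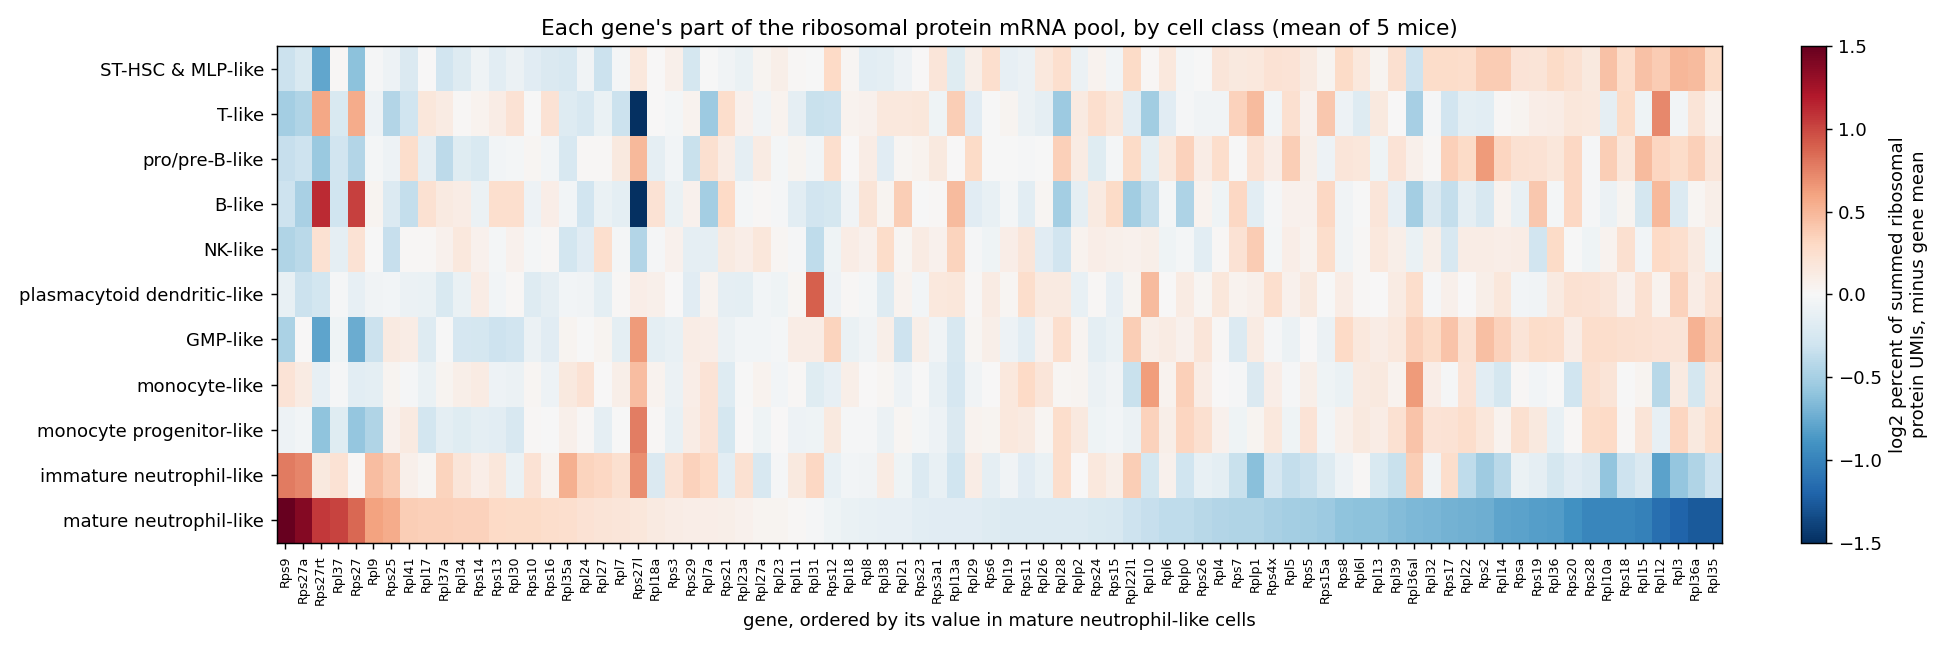
The part of each gene in the summed ribosomal protein UMIs of a class, as log2 of the percent minus the mean of the gene over 11 classes (color, mean of 5 mice), for the members with a mean level of at least 1 per 10000 UMIs. Rps9 and Rps27a stand out in mature neutrophil-like cells, Rps27 in B-like (4.61%), mature neutrophil-like (4.10%) and T-like cells (3.33%), and Rps27l is low in B-like and T-like cells.

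Rps27 was high in each of the mature lymphoid classes, at 145 ± 23.0 in B-like, 128 ± 19.8 in T-like and 82.6 ± 10.3 in NK-like cells. The next was plasmacytoid dendritic-like at 60.5 ± 2.34 UMIs per 10000. Rpl31, singled out after its values were seen, had its highest class mean in plasmacytoid dendritic-like cells. It made up 1.78% ± 0.292 of member UMIs in that class, against 0.736% to 1.19% as the means of the other 10 classes. Rpl31 had 52.4, 56.4, 56.9, 54.7 and 38.001 UMIs per 10000 there, with the Day 12 mouse apart. Rpl31 lies at chr1:39367842-39371911 on the plus strand and is overlapped by Tbc1d8 on the other strand (GRCm38).

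For 3 members the copy and its core gene were compared as the copy's part of their summed UMIs. Rps27l made up 16.2% ± 1.05 (SD, n = 5) in GMP-like, 15.9% ± 0.485 in monocyte progenitor-like, 12.5% ± 2.04 in pro/pre-B-like and 11.1% ± 1.72 in ST-HSC & MLP-like cells, but 1.77% ± 0.316 in T-like and 1.28% ± 0.315 in B-like cells. Rpl36al, an autosomal copy of the X-linked Rpl36a, made up 47.9% ± 1.27 in monocyte-like and 46.7% ± 2.89 in immature neutrophil-like cells, against 22.3% ± 1.39 in ST-HSC & MLP-like cells. Rpl22l1, the copy of Rpl22, made up 36.3% ± 4.14 in monocyte-like and 57.7% ± 5.79 in immature neutrophil-like cells. In the other classes it lay between 39.1% and 50.01% as means. Over the last 300 bases of the annotated transcripts the copies matched their partners at 78.4% of 190 aligned bases for Rps27l, 83.0% of 265 for Rpl36al and 79.8% of 253 for Rpl22l1, so their sequences differ where 3′ reads fall. The genes lie at chr9:66946086-66949516 (Rps27l), chr3:90212522-90213651 (Rps27), chr12:69182731-69184083 (Rpl36al), chrX:134585654-134588062 (Rpl36a), chr3:28805436-28807424 (Rpl22l1) and chr4:152325742-152334071 (Rpl22) on GRCm38.

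**Figure D4:**
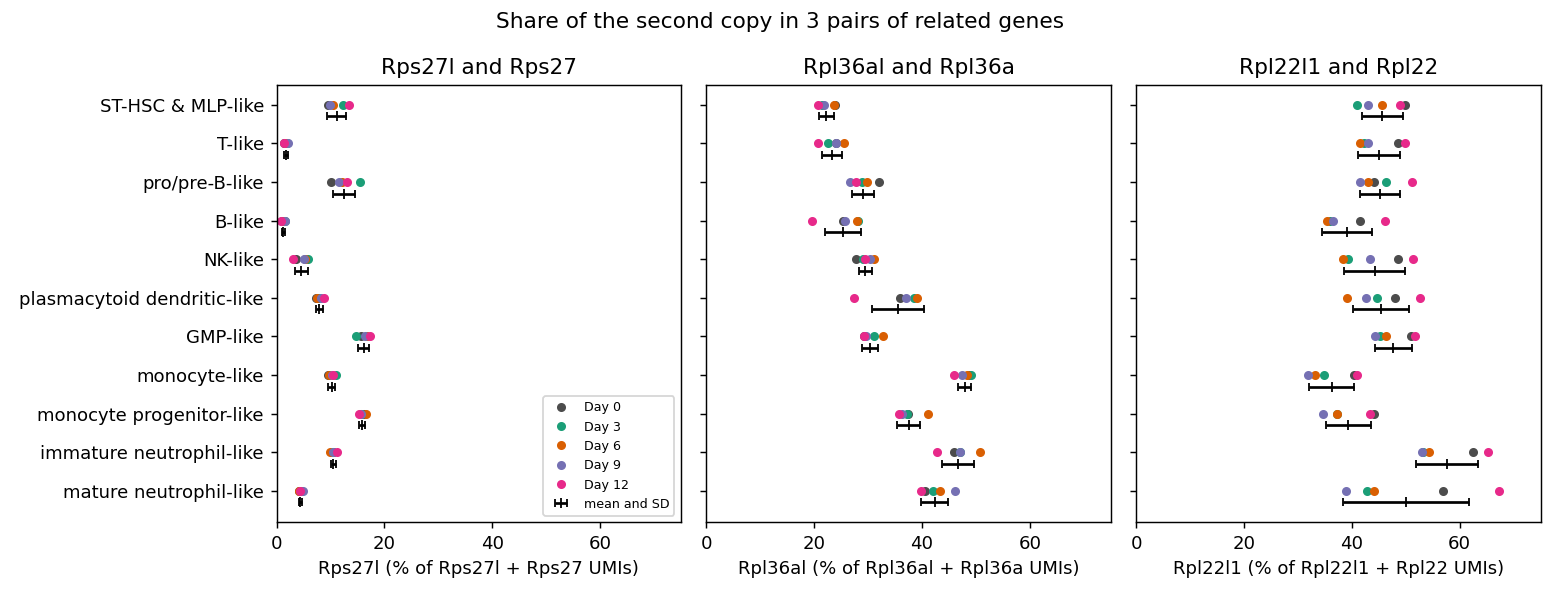
UMIs of Rps27l, Rpl36al and Rpl22l1 as a percent of the sum with Rps27, Rpl36a and Rpl22 (x axes) in 11 classes (y axis). Points are mice and bars are the mean and SD over 5 mice. Rps27l lies at 2.11% or less in every T-like and B-like value and at 14.7% or more in every GMP-like value.

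The rarest copies had few UMIs. Rpl39l and Rpl10l, which are known from testis, had 192 and 7 UMIs over all barcodes kept. Rpl39l was found in 0.342% and Rpl10l in 0.0218% of barcodes. Rpl6l made up 14.1% to 17.1% of its sum with Rpl6 in the class means, and Rps27rt 10.2% to 12.8% of its sum with Rps27.

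Ribosomal proteins outside the symbol rule and other genes of translation were described from lists, under TMM scaling. Gnb2l1, which encodes the ribosomal scaffold Rack1, was higher in GMP-like than in mature neutrophil-like cells (log2 fold change 2.25 ± 0.09). Fau, which encodes Rps30 fused to a ubiquitin-like protein, was lower (-0.74 ± 0.07). This direction was read under TMM alone. Scaling to total UMIs moved the median of all genes from 0.07 to 1.10 in this comparison, so the direction of Fau, like that of Rps9, may depend on the scaling. Of 26 ribosome biogenesis genes 24 were higher and 1 lower in GMP-like cells (median 2.64), and of 17 translation factors 16 were higher and 1 lower, where 38.4% and 35.5% of all genes were called in these directions. Mitochondrial ribosomal proteins had 68 higher and 4 lower of 77 (median 1.42). Between pro/pre-B-like and B-like cells the lists parted from the cytosolic members, whose median was 0.01. Ribosome biogenesis genes had 20 higher and none lower (median 1.02), with nucleolin (Ncl) at 1.66 ± 0.11 and nucleophosmin (Npm1) at 1.67 ± 0.11, and mitochondrial ribosomal proteins had 70 higher and none lower (median 0.93). Translation factors had 10 higher and 3 lower (median 0.28). Of all genes 26.9% were higher and 23.4% lower. Against monocyte-like cells, B-like cells had 37 of 77 mitochondrial ribosomal protein genes lower and 3 higher (median -0.39), with 13 biogenesis genes higher and 2 lower and 3 translation factors higher and 9 lower, against 24.0% and 26.2% of all genes. T-like against B-like cells had 10 translation factors higher and 1 lower, 6 biogenesis genes higher and none lower, and 9 of 77 mitochondrial ribosomal proteins higher and 2 lower. The share of mitochondrial ribosomal proteins that were higher was near the 12.8% of all genes, and 9.75% of all genes were lower.

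Outside the family, genes whose level followed the member share closely over the 55 sums of 11 classes and 5 mice were Gm10073, Eef1g, Gnb2l1, Eef1b2, Gm9493, Gm6133, Wdr89, Eef1a1 and Uqcc3. Their Spearman rho ran from 0.92 down to 0.82 among 955 genes compared. Eef1g, Eef1b2 and Eef1a1 are elongation factors of translation. Sums of 1 class share its cell type, and sums of 1 mouse its library, so these are descriptions. Among the members themselves Rpl23, Rps3 and Rpl18 tracked the share at 0.99, 0.98 and 0.98, while Rpl36al (0.25), Rps27l (0.37) and Rpl10 (0.46) tracked it least among members with a mean of at least 1 UMI per 10000. Each member is itself a part of the share, so a high rho is in part built in.

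Day by day, each class has 1 value from 1 mouse. The median change over 11 classes was -0.00131, 0.473, 0.739 and -1.10 percentage points at days 3, 6, 9 and 12 against Day 0. These medians moved with the choice of barcodes: at Day 6 it was -0.102 with at least 1000 UMIs a barcode and 0.0182 with the mitochondrial limit, and at Day 12 -2.94 with that limit and -0.404 with free RNA subtracted. At Day 3 it was 0.587 with free RNA subtracted. At Day 12 the share was higher than at Day 0 in 2 of 11 classes and at Day 9 in 9 of 11. The largest single change, in the pro/pre-B-like class of Day 3, was from 29.9% (exact binomial 95% interval 29.8 to 30.0%) to 37.4% (37.3 to 37.4%). These intervals cover counting error only, not the spread between mice.

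A group of 122 barcodes at Day 3 moved with that change, of which 88.5% held a UMI of Cdkn2a, a cell cycle inhibitor gene. In this group the members held 39.5% of UMIs (39.5 to 39.6%) at a median of 19774.5 UMIs, and in the other 122 pro/pre-B-like barcodes of Day 3 32.4% (32.3 to 32.5%) at 4785 UMIs. Among members compared between both groups of the same library, Rps23, a protein of the decoding center, had the highest ratio, at 112 against 62.7 UMIs per 10000. Rps27 had the lowest, at 44.8 against 48.8. Depth differed between the groups, and its part in the result was not tested.

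Counts of single members past 1.5-fold from Day 0, over pairs of a member and a class with at least 200 UMIs, were 13 higher and 3 lower of 911 pairs at Day 3, where 10.5% of all pairs of a gene and a class were past that fold. At Day 6 they were 2 higher and 8 lower of 910 (10.4% of all pairs), at Day 9 2 higher and 4 lower of 910 (12.5%) and at Day 12 none higher and 11 lower of 910 (5.31%). With 10% of each sum taken off as free RNA these counts were 58 higher and 3 lower, 51 and 5, 61 and 4, and 6 and 1, so at Day 12 the direction turned. The share of all pairs past the fold in that setting is not given here, so these counts have no background beside them. Of the 13 higher at Day 3, 11 were in pro/pre-B-like cells. They included Rpl5, which binds 5S ribosomal RNA, at 27.5 against 14.3 UMIs per 10000 (95% Poisson intervals 27.0 to 28.1 and 13.5 to 15.02), Rps23 at 97.3 against 52.1, Rplp0 at 71.6 against 38.4, Rps12 at 66.6 against 36.3 and Rpl12 at 34.1 against 19.4. Without the Cdkn2a group, an alternative chosen after seeing the data, 1 of 82 members, Rps12, was past the fold there, and the median log2 ratio was 0.10, against 0.29 with it. Of the pro/pre-B-like barcodes left at Day 3, 13.9% still held a UMI of Cdkn2a, against 0.568% at Day 0. Cells like those of the group may thus remain among them.

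The pairs with the lowest ratios to Day 0 were Rps27rt at Day 6 in B-like (12.5 against 24.6) and T-like cells (11.4 against 20.8), Rpl22l1 at Day 9 and Day 6 in mature neutrophil-like cells (0.9995 and 1.06 against 1.91), and Rpl12 at Day 12 in the same class (0.632 against 1.15). Rpl22l1 had 1.91, 1.09, 1.06, 0.9995 and 1.99 in mature and 3.99, 2.52, 2.46, 2.69 and 3.70 in immature neutrophil-like cells from Day 0 to Day 12. Days 0 and 12 lay together above the days between. Rps27rt had the same form in B-like cells, with 24.6, 17.3, 12.5, 15.1 and 29.5, and was below its Day 0 level in 11 of 11 classes at each of days 3, 6 and 9 and in 2 of 11 at Day 12. Its 3′ reads within the bases it shares with Rps27 cannot be told apart from those of Rps27. Counts under Rps27rt can therefore not be taken as a measure of that gene alone. Rps27 was below its Day 0 level in 11, 10, 10 and 8 of 11 classes at days 3, 6, 9 and 12. Rpl5 had the reverse form in immature neutrophil-like cells, with 1.30, 2.26, 2.04, 2.27 and 1.63, and was above its Day 0 level in 11 of 11 classes at days 3, 6 and 9. Classes of 1 day come from 1 library, so a library and a day cannot be told apart.

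**Figure D5:**
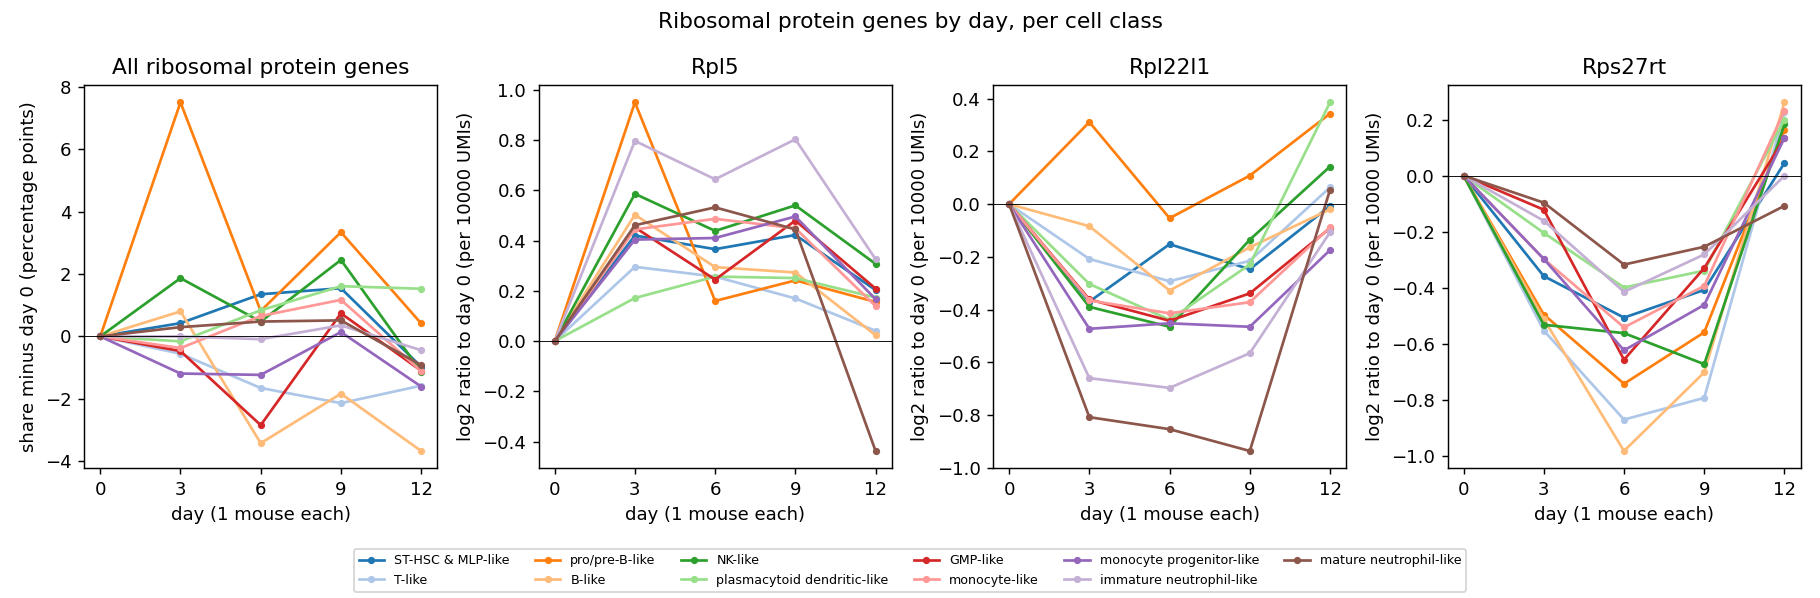
Change from Day 0 in the share of UMIs of the family (left panel, percentage points) and in the level of Rpl5, Rpl22l1 and Rps27rt (log2 ratio of UMIs per 10000), by day (x axis, 1 mouse each), with a line for each of 11 classes. Pro/pre-B-like cells at Day 3 stand 7.50 points above Day 0. Rpl5 lies above 0 in every class at days 3, 6 and 9, and Rps27rt below 0. Reads of Rps27rt within the bases it shares with Rps27 cannot be told apart from those of Rps27.

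At Day 12, 10 of the 11 pairs past the fold were in mature neutrophil-like cells, in which 81 of 84 members were below Day 0 and the median log2 ratio was -0.41, against -0.03 over all genes of that class. The share was 3.42% at Day 12 and 4.34% at Day 0. It was also the lowest of the 5 days in each of the 3 mature neutrophil-like clusters, at 3.39%, 3.57% and 3.27%. Free RNA of the Day 12 library held 11.9% of its UMIs in the members, the lowest of the libraries, against 19.3% at Day 0. After 10% of each sum was taken off as free RNA the shares were 2.48% and 2.67%. Whether the difference in free RNA has a part in the lower share was not tested.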

How the data were processed

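Per the labels and the paper's methods, libraries were 10x Genomics 3′ v2, and the submitters' processing notes name Cell Ranger and mm10. The authors deposited counts, as UMIs per gene and barcode, with no normalization. For these counts, the gene annotation release is not given in the sources used here.

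Barcodes with at least 500 UMIs were kept. They were clustered without the members (scanpy 1.11.5 and leidenalg 0.10.2 under Python 3.11.15, 707 genes, 20 principal components, 20 neighbors, resolution 0.6), large clusters were split again, and classes were named from markers that reached a fold of 2 with at least 3 of a list. No doublets were removed: Scrublet marked under 0.5% of barcodes in 4 of 5 libraries, so the planned doublet alternative was not run. UMIs were summed per class and mouse for classes with at least 20 barcodes. Sums of 5 mice were compared with edgeR 4.0.16 (R 4.3.3) by its quasi-likelihood test with Benjamini-Hochberg adjustment over 12146 genes that passed filterByExpr, with all classes in 1 fit and the mouse as a block, since classes of a library come from 1 mouse. TMM scaling and scaling to the summed members were both used, and DESeq2 1.42.0 was an alternative. Shares of neighbours in the order were compared by exact sign-flip permutation, two-sided (scipy 1.17.1). On simulated counts for T-like against B-like cells, over 12096 genes, 71% of genes changed by 2-fold and 92% of those changed by 4-fold were recovered. Days have 1 mouse each and were not tested.

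Genes were named by rule: copies and other symbols, Rplp0, Rplp1, Rplp2, Rpsa and Rps27a, the 5 highest and 5 lowest by level, the 3 highest and 3 lowest called relative to the summed members with 1 sign in 5 mice, the 5 largest rises and falls by day, the 10 most like genes, and Fau and Gnb2l1. A gene that the rule also takes in is not reported here. The members and lists were chosen with earlier results of these data known. Intervals cover counting error only.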

Additional observations from a re-analysis of the deposited data

How the results depend on the processing

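Of the alternatives, 254 values stayed near the reported ones, 46 moved, and of the counts of calls 7 became smaller and 1 larger by more than 1.5 times. These classes rest on size and not on direction, and directions did turn. Among those were the Day 6 median below with at least 1000 UMIs and without the top 5%, the pairs at Day 12 from 0 higher and 11 lower to 6 and 1 with free RNA subtracted, and pro/pre-B-like against B-like under TMM from 25 higher and 25 lower to 15 and 40 with DESeq2 and 38 and 18 with total UMIs. T-like against B-like cells gave 45 members called under TMM with a mitochondrial limit. Relative to the summed members that comparison gave 13 with free RNA subtracted, 46 with DESeq2, 15 with no filter on low counts and 12 with no replicate block (the mouse as block), and 17 to 22 when 1 mouse was left out. Without the block TMM gave 83, 39, 57 and 55 calls for the comparisons in the order of the text, and the other scaling 66, 53 and 48 for the first 3. Leaving out 1 mouse gave 83 to 84, 41 to 53, 60 to 66 and 55 to 75 under TMM.

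With free RNA subtracted, shares were 42.9% (ST-HSC & MLP-like), 40.9% (T-like), 33.4% (NK-like), 30.7% (plasmacytoid dendritic-like), 29.2% (GMP-like), 24.8% (monocyte-like), 24.2% (monocyte progenitor-like), 4.71% (immature neutrophil-like) and 3.27% (mature neutrophil-like). As the median over cells they were 39.8% (T-like), 27.8% (plasmacytoid dendritic-like), 23.2% (GMP-like), 22.4% (monocyte progenitor-like) and 4.70% (immature neutrophil-like). T-like cells had 37.0% with the mitochondrial limit and 40.3% without the top 5% of UMIs. Plasmacytoid dendritic-like cells had 27.9% without the top 5% and 25.5% at resolution 1.2, where GMP-like cells had 30.4%.

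The median change of share in percentage points was 0.560, 0.148 and 0.587 at Day 3 with resolution 1.2, monocyte progenitors pooled and free RNA subtracted. At Day 6 it was 0.0182 with the mitochondrial limit, -0.102 with at least 1000 UMIs, 0.322 at resolution 1.2, -0.0703 without the top 5%, 0.242 with progenitors pooled and 1.11 with free RNA subtracted. At Day 9 it was 0.614 with at least 1000 UMIs, 1.40 with free RNA subtracted and 1.53 as the median over cells, and at Day 12 -2.94 with the mitochondrial limit, -0.404 with free RNA subtracted and -0.689 as the median over cells. Pairs past the fold numbered 27, 61 and 91 at Day 3 (without the top 5%, free RNA subtracted, the lower fold) and 6 without the Cdkn2a group, 56 and 74 at Day 6 (free RNA, the lower fold), 12, 65 and 70 at Day 9 (top 5%, free RNA, the lower fold), and 34, 7 and 117 at Day 12 (mitochondrial limit, free RNA, the lower fold). The cause of these shifts was not tested. The mitochondrial limit was 2.50% for the Day 12 library and 7.07% to 9.12% for the others. At Day 12 it lay below the median mitochondrial share of T-like (4.22%), B-like (4.07%), GMP-like (3.68%) and ST-HSC & MLP-like barcodes (3.18%). It lay above that of monocyte-like (2.12%), immature neutrophil-like (0.750%) and mature neutrophil-like barcodes (0.415%). Free RNA subtraction, the top 5%, pooled progenitors and the set without the Cdkn2a group were chosen after seeing the data.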
